A study of Danio rerio with 12 samples.

Results

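Macrophages of csf1rDM zebrafish embryos were followed over an interval of early development, as the change in expression of every gene between 50 and 28 hours post fertilisation (hpf). The libraries were chosen by their labels alone and are the 6 of 12 in the series that carry this genotype, 3 from csf1rDM embryos at 50 hpf and 3 from csf1rDM embryos at 28 hpf. All 6 came from fish homozygous for a mutation in each Csf1 receptor gene, csf1raj4e1/j4e1;csf1rbre01/re01, with the tg(mpeg-GFP) transgene, in which the macrophage promoter mpeg1 drives green fluorescent protein. The other 6 libraries, 3 at 50 hpf and 3 at 28 hpf, came from wildtype tg(mpeg-GFP) embryos, called control here. Their values are set beside those of csf1rDM and enter the test of the difference between genotypes. They were also fitted in the same model, so the p-values of csf1rDM rest in part on their spread. With the 6 csf1rDM libraries alone 889 genes were called, against 1353 in the model of all 12. Every library of both genotypes was made from GFP-positive cells sorted from a pool of embryos that had been kept in phenylthiourea, which blocks pigment formation. It was added before 28 hpf, so embryos of 50 hpf had been in it for longer. In both genotypes the stage and the length of this exposure cannot be told apart. The pool held 70 embryos in csf1rDM at 50 hpf and 35 in csf1rDM at 28 hpf and in each control group, so within csf1rDM the stage and the size of the pool cannot be told apart. The cells were sorted on their GFP signal, and macrophages without that signal were not sampled. The labels do not say that the control embryos were siblings of the mutants, and nothing beyond the label says that the pools of a group came from separate crosses or days, so p-values measure the spread between pools.

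Csf1r is the receptor tyrosine kinase through which macrophages receive the growth factors Csf1 and Il34, and zebrafish carry it as a pair of paralogous genes. The macrophages of an early zebrafish embryo are primitive ones, born near the yolk and without passage through a blood stem cell. They divide, migrate through the tissues, clear dying cells and bacteria, and some settle in the brain as the first microglia. The interval from 28 to 50 hpf runs from shortly after they appear to the time at which they are colonising tissue, and the comparison asks how much of this change takes place in cells that lack Csf1r.

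Total counts were 10675567, 12747947 and 13159378 in the csf1rDM libraries at 50 hpf, against 8641139, 15561536 and 14870153 at 28 hpf, and lay between 12741263 and 20261650 in the control libraries. The library csf1rDM 50 hpf replicate 1 stood apart in breadth, with a count for 26548 genes, against 17502 to 20272 in the other 5 csf1rDM libraries. The first principal component of the 6 csf1rDM libraries held 39.2% of the variance and separated the stages, with scores of 55.7 to 80.5 at 50 hpf and -92.8 to -45.3 at 28 hpf. Transcripts of other cells were unevenly spread. The 16 skeletal muscle markers summed to 22.5, 11.7 and 5877 CPM (counts relative to the TMM-scaled library total) at 50 hpf, against 131, 807 and 3491 CPM at 28 hpf, and were high in 2 of the 3 control libraries at 50 hpf. The 13 pigment cell markers summed to 46.0, 30.0 and 23.6 CPM at 50 hpf, against 486, 32.2 and 34.7 CPM at 28 hpf. The 17 keratinocyte markers summed to 72.9, 88.7 and 225 CPM at 50 hpf, against 603, 174 and 177 CPM at 28 hpf. The muscle sum was thus highest in replicate 3 of each stage and also raised in replicates 1 and 2 of 28 hpf, against at most 18.7 CPM in the control libraries of 28 hpf, and the pigment and keratinocyte signal in replicate 1 of 28 hpf. The part of these cells in the results was not tested.

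Between 50 and 28 hpf, 1353 of 16429 tested genes (8.24%) changed in csf1rDM macrophages at an adjusted p below 0.01 and an absolute log2 fold change above 1, which is what called means here (edgeR quasi-likelihood F test with Benjamini-Hochberg adjustment over all tested genes). Of these, 772 genes (4.7% of those tested) were higher and 581 (3.54%) were lower at 50 hpf. The rises included more large changes, with 121 genes above and 24 genes below a log2 fold change of 4 in size. In control, 1033 genes (6.29%) were called, 704 higher and 329 lower at 50 hpf. The median log2 fold change of all tested genes was 0.04 in csf1rDM and 0.06 in control (50 over 28 hpf in each). Of the 1353 genes called in csf1rDM, 1323 had the same sign in control and 686 were also called there. Values of the 2 stages did not overlap for 1352 of the called genes, against 36.8% of all tested genes.

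**Figure D1:**
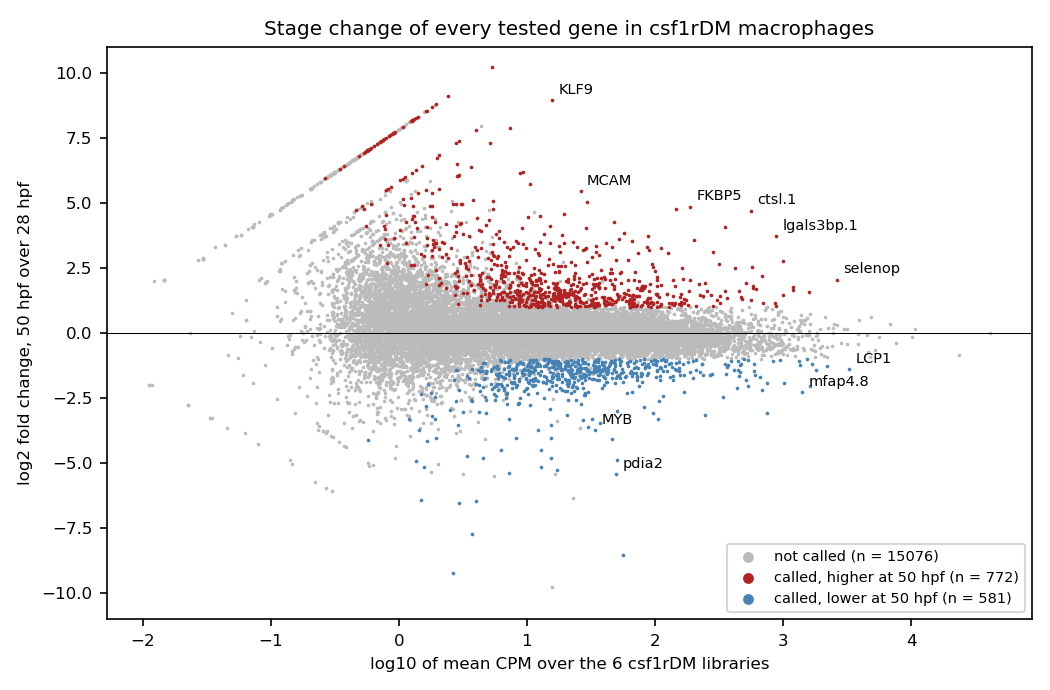
Each point is a tested gene, with the log10 of its mean CPM over the 6 csf1rDM libraries on the x axis and its log2 fold change, 50 over 28 hpf, on the y axis. The 772 genes called higher at 50 hpf are red and the 581 called lower are blue, and 12 genes that were at 0 in all 6 libraries or lay beyond the y axis are not drawn.

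The transcripts of the mutated receptor genes were present at both stages. csf1rb (ENSDARG00000053624) had 193, 153 and 214 CPM at 50 hpf, against 61.4, 92.2 and 97.8 CPM at 28 hpf, and it rose by a log2 fold change of 1.15 ± 0.21 (standard error, adjusted p = 0.00141). csf1ra (ENSDARG00000102986) had 339, 405 and 399 CPM at 50 hpf, against 239, 301 and 273 CPM at 28 hpf. The stages did not overlap for either gene, but the log2 fold change of csf1ra, 0.49 ± 0.11, was under the fold threshold (adjusted p = 0.0047). Without 28 hpf replicate 1 the log2 fold change of csf1rb was 0.97, also under that threshold. The deposited counts do not show whether these transcripts could be translated. Levels of mpeg1 itself and of ptprc, the common leukocyte phosphatase CD45, describe the sorted cells but do not test their identity. The sort on the mpeg1 reporter selects for mpeg1, and ptprc does not separate macrophages from other leukocytes. The more abundant of the IDs with the symbol MPEG1 (ENSDARG00000055290) had 4413, 4989 and 4498 CPM at 50 hpf, against 3173, 3311 and 3292 CPM at 28 hpf. For ptprc the values were 770.1, 786 and 740.1 CPM at 50 hpf, against 703, 856 and 889.9 CPM at 28 hpf, and they overlapped between stages.

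The 10 largest rises by the rule for naming genes, which required stages without overlap, had log2 fold changes of 4 or more. KLF9 (ENSDARG00000068194), a zinc finger transcription factor induced by glucocorticoids and thyroid hormone, had 25.7, 31.3 and 37.6 CPM at 50 hpf, against 0.121, 0 and 0.0713 CPM at 28 hpf. The 28 hpf libraries held 2 counts of it in all, so its ratio of 591 had a 95% counting interval of 163 to 4880, which covers counting error only (log2 fold change 8.96 ± 0.56, adjusted p = 2.43e-07). FKBP5 (ENSDARG00000028396), a co-chaperone of the glucocorticoid receptor, had 346, 378 and 374 CPM at 50 hpf, against 11.9, 10.9 and 14.8 CPM at 28 hpf (log2 fold change 4.87 ± 0.17, adjusted p = 3.41e-09). ctsl.1 (ENSDARG00000003902), named as a cathepsin L, a lysosomal protease, had 1138, 1046 and 1062 CPM at 50 hpf, against 34.7, 39.0 and 49.9 CPM at 28 hpf (log2 fold change 4.71 ± 0.21, adjusted p = 2.06e-08). The 3 libraries of 50 hpf lay within a narrow band for FKBP5 and ctsl.1 and far above every library of 28 hpf.

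MOXD1 (ENSDARG00000031136), a copper-dependent monooxygenase related to dopamine beta-hydroxylase, had 292, 258 and 298 CPM at 50 hpf, against 9.84, 9.93 and 11.2 CPM at 28 hpf (log2 fold change 4.77 ± 0.17). MCAM (ENSDARG00000005368), a cell adhesion molecule of the immunoglobulin family, had 42.0, 57.2 and 56.1 CPM at 50 hpf, against 0.607, 2.57 and 0.0713 CPM at 28 hpf (log2 fold change 5.47 ± 0.52). CPT1B (ENSDARG00000058285), which passes long-chain fatty acids into mitochondria, had 49.5, 53.7 and 67.3 CPM at 50 hpf, against 1.94, 2.84 and 0.356 CPM at 28 hpf (log2 fold change 5.06 ± 0.45). For all of these the lowest value of 50 hpf was above the highest of 28 hpf, which the rule for naming them required. The other genes with the largest rises were asgr1b (4.52 ± 0.46), named as an asialoglycoprotein receptor subunit, antxr1c (4.46 ± 0.30), of the anthrax toxin receptor family, nid2b (4.11 ± 0.51), a nidogen of basement membranes, and the unnamed locus si:ch211-207l14.3 (4.07 ± 0.17), all as log2 fold changes. Adjusted p ranged up to 6.19e-05, for nid2b.

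The 10 largest falls included the transcription factors MYB and BATF3. MYB (ENSDARG00000053666), needed for haematopoietic progenitors, had 4.93, 3.94 and 5.26 CPM at 50 hpf, against 64.6, 69.1 and 56.5 CPM at 28 hpf (log2 fold change -3.75 ± 0.18, adjusted p = 2.32e-08). BATF3 (ENSDARG00000042577), a basic leucine zipper factor required for a dendritic cell lineage in mice, had 1.94, 3.38 and 2.00 CPM at 50 hpf, against 28.1, 34.04 and 24.0 CPM at 28 hpf (log2 fold change -3.55 ± 0.23, adjusted p = 3.10e-07). Neither gene had overlapping stages, as the rule for naming them required, and the 3 libraries within a stage differed by less than 2-fold. pdia2 (ENSDARG00000018263), a protein disulphide isomerase, had 3.26, 2.41 and 1.19 CPM at 50 hpf, against 124, 102 and 66.2 CPM at 28 hpf (log2 fold change -5.43 ± 0.43). The locus si:ch1073-429i10.1 (ENSDARG00000075664) had 0.441, 0.241 and 0.222 CPM at 50 hpf, against 80.7, 160.1 and 96.9 CPM at 28 hpf, with at most 5 counts in any library of 50 hpf. tfa (ENSDARG00000016771), the plasma iron carrier transferrin, had 8.64, 5.31 and 1.78 CPM at 50 hpf, against 115, 85.2 and 60.1 CPM at 28 hpf (log2 fold change -4.06 ± 0.48).

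npsn (ENSDARG00000010423), an astacin protease known from neutrophils, had 1.50, 0 and 0.667 CPM at 50 hpf, against 1.94, 49.0 and 24.0 CPM at 28 hpf (log2 fold change -5.16 ± 1.09, adjusted p = 0.00347). At 28 hpf it was low in replicate 1 and high in the other 2 libraries, and its call was lost without 50 hpf replicate 2, 50 hpf replicate 3 or 28 hpf replicate 2 (log2 fold changes of -4.59, -5.14 and -4.26). The rest were mfap4.10 (-4.80 ± 0.47), of the microfibril-associated protein 4 family that marks zebrafish macrophages, inka1b (-3.75 ± 0.31), whose human counterpart inhibits the kinase PAK4, tmem269 (-4.50 ± 0.28) and si:ch211-14a17.10 (-4.90 ± 0.47), again as log2 fold changes.

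**Figure D2:**
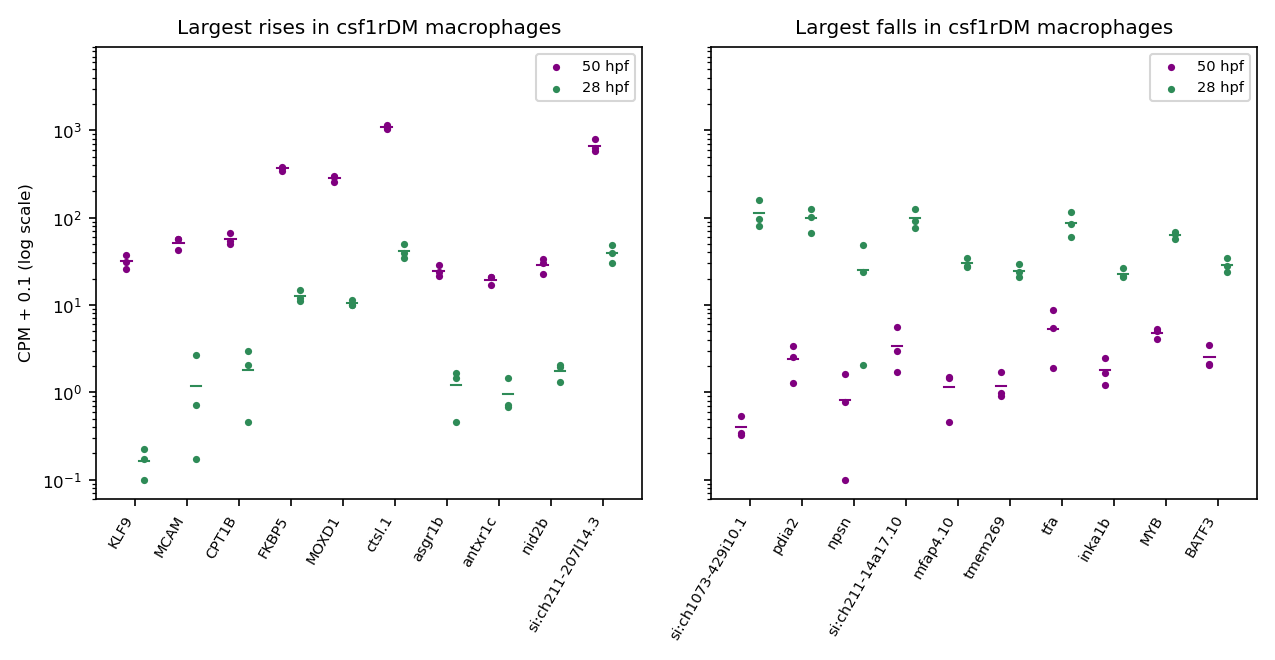
CPM plus 0.1 on a log scale for the 10 genes with the largest rises (left) and the 10 with the largest falls (right) by the rule for naming genes. Each dot is a csf1rDM library, 50 hpf left of 28 hpf for each gene, and each bar is the mean of 3 libraries. The stages are apart for every gene, as that rule required. They are closest for npsn, whose lowest library of 28 hpf (1.94 CPM) is near the highest of 50 hpf (1.50 CPM).

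The 6 called genes that gained most CPM included secreted and membrane proteins. Some uncalled genes, among them the abundant MPEG1 ID, gained more than some of these 6. selenop (ENSDARG00000093549), the plasma carrier of selenium, had 4021, 4354 and 4295 CPM at 50 hpf, against 912, 972 and 1174 CPM at 28 hpf (log2 fold change 2.05 ± 0.09, adjusted p = 1.63e-08). SLC40A1 (ENSDARG00000000241), or ferroportin, the exporter of cellular iron, had 2173, 2421 and 2607 CPM at 50 hpf, against 711, 841 and 832 CPM at 28 hpf (log2 fold change 1.59 ± 0.09, adjusted p = 8.51e-08). For both, every library of 50 hpf was above every library of 28 hpf. cfp (ENSDARG00000094451), or properdin, which stabilises the alternative complement convertase, had 1623, 1897 and 1939 CPM at 50 hpf, against 398, 663 and 679.5 CPM at 28 hpf (log2 fold change 1.65 ± 0.18). lgals3bp.1 (ENSDARG00000040528), named as a galectin-3-binding glycoprotein, had 1738, 1614 and 1603 CPM at 50 hpf, against 152, 119 and 102 CPM at 28 hpf (log2 fold change 3.73 ± 0.13). The other 2 of these 6 were c1ql1, which encodes a C1q-like secreted protein, and si:ch211-160d14.12, with log2 fold changes of 1.77 ± 0.09 and 2.76 ± 0.14.

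The 6 called genes that lost most CPM included a cytoskeletal, a chaperone and a chromatin protein, and some uncalled genes, actb1 (a beta-actin) among them, lost more. LCP1 (ENSDARG00000023188), or L-plastin, an actin-bundling protein of leukocytes, had 1705, 2052 and 1683 CPM at 50 hpf, against 4784, 4653 and 4930 CPM at 28 hpf (log2 fold change -1.40 ± 0.07, adjusted p = 7.44e-08). calr3b (ENSDARG00000102808), a calreticulin, had 579, 580 and 764 CPM at 50 hpf, against 2482, 2756 and 2583 CPM at 28 hpf (log2 fold change -2.02 ± 0.09, adjusted p = 2.12e-08). hmga1a (ENSDARG00000028335), a chromatin protein of proliferating cells, had 967, 1057 and 1093 CPM at 50 hpf, against 2401, 2321 and 2321 CPM at 28 hpf (log2 fold change -1.18 ± 0.06, adjusted p = 4.24e-08). Each of the 3 was more than 2-fold lower in the mean at 50 hpf, and no library of 50 hpf reached a library of 28 hpf. EFHD2, a calcium-binding regulator of actin, fell by a log2 fold change of 1.25 ± 0.08. The last pair of these 6 belong to the microfibril-associated protein 4 family, mfap4.8 (-2.27 ± 0.11) and the ID ENSDARG00000090783 with the symbol MFAP4 (-1.42 ± 0.07), whose symbol is shared by several IDs, so that reads could be split between copies.

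Genes of DNA replication and the G1/S transition fell together. Of 53 tested members, 43 were called lower and 0 higher at 50 hpf (81.1% called, against 8.24% of all tested genes), and the median log2 fold change was -1.48, against 0.04 over all tested genes. MCM2 (ENSDARG00000102798), of the replicative helicase, had 80.1, 84.9 and 110.5 CPM at 50 hpf, against 312, 336 and 265 CPM at 28 hpf (log2 fold change -1.73 ± 0.14, adjusted p = 2.55e-06). PCNA (ENSDARG00000054155), the sliding clamp of DNA polymerases, had 199, 233 and 217 CPM at 50 hpf, against 558, 496 and 415 CPM at 28 hpf (log2 fold change -1.18 ± 0.12, adjusted p = 1.46e-05). In both genes every library of 50 hpf was below every library of 28 hpf. The largest falls were in GINS4 (-2.36 ± 0.33), a helicase cofactor, ORC1 (-2.22 ± 0.31), of the origin recognition complex, and CDT1 (-2.07 ± 0.39), which loads the helicase. The helicase subunits MCM3 and MCM4 fell by log2 fold changes of 1.79 ± 0.12 and 1.63 ± 0.09. Summed over the 55 matched IDs, the group held 1559, 1517 and 1692 CPM at 50 hpf, against 4514, 4369 and 3775 CPM at 28 hpf. In bulk samples of sorted cells, fewer cells in a phase of the cycle and less RNA per cell cannot be told apart.

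Genes of mitosis fell as widely, with 47 of 53 tested members called lower and 0 called higher (88.7%, against 8.24% of all tested genes), and a median log2 fold change of -1.50. CDK1 (ENSDARG00000087554), the kinase that starts mitosis, had 38.3, 37.1 and 52.5 CPM at 50 hpf, against 135, 147 and 111 CPM at 28 hpf (log2 fold change -1.62 ± 0.16, adjusted p = 1.17e-05). plk1 (ENSDARG00000058471), a kinase of the mitotic spindle and of cytokinesis, had 55.3, 50.6 and 79.0 CPM at 50 hpf, against 226, 208 and 165 CPM at 28 hpf (log2 fold change -1.69 ± 0.17, adjusted p = 9.18e-06). TOP2A (ENSDARG00000024488), the topoisomerase that untangles replicated chromosomes, had 60.5, 57.9 and 118 CPM at 50 hpf, against 192, 244 and 190.3 CPM at 28 hpf (log2 fold change -1.40 ± 0.24, adjusted p = 8.53e-04). The values of TOP2A at 50 hpf were uneven, with replicate 3 the highest, as it also was for plk1 and CDK1. tacc3 (-2.04 ± 0.16) and TPX2 (-1.88 ± 0.21), which build spindle microtubules, had some of the largest falls, and mki67 (-1.03 ± 0.21), the proliferation marker, the smallest of those called, as log2 fold changes. The call of mki67 was lost without 50 hpf replicate 1 (-0.94), 50 hpf replicate 2 (-0.86), 28 hpf replicate 2 (-0.96) or 28 hpf replicate 3 (-1.04). The summed level was 1640, 1583 and 2142 CPM at 50 hpf, against 4724, 4807 and 3962 CPM at 28 hpf, with no overlap between stages.

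In control fewer members of the same groups were called. The replication group had 15 of 53 members called lower and a median of -0.89, and the mitosis group had 3 of 53 called lower and a median of -0.64. Of all 16429 tested genes, 6.29% were called in control in either direction, 329 of them lower. The difference between genotypes was therefore tested gene by gene, as the csf1rDM stage change minus the control stage change. It was negative for 51 of 53 replication genes and for all 53 mitosis genes, against 53.0% of all tested genes, but edgeR called it for 0 replication genes and for 2 mitosis genes (0.158% of all tested genes were called). DESeq2 called 0 and 9 of them, against 133 of all 16429 tested genes. An unadjusted p of the difference below 0.05 was reached by 28 and 44 of them, against 12.9% of all tested genes. TTK (ENSDARG00000041361), a kinase of the spindle checkpoint, had 48.0, 46.0 and 51.0 CPM at 50 hpf, against 174, 151 and 144 CPM at 28 hpf in csf1rDM and 124, 102 and 95.6 CPM at 50 hpf, against 148, 168 and 144 CPM at 28 hpf in control (difference -1.18 ± 0.16, adjusted p = 0.00631). ccnb3 (ENSDARG00000034855), a cyclin of mitosis and meiosis, had 13.8, 16.1 and 16.2 CPM at 50 hpf, against 47.7, 51.1 and 39.6 CPM at 28 hpf in csf1rDM and 39.9, 32.9 and 36.1 CPM at 50 hpf, against 39.7, 48.1 and 42.0 CPM at 28 hpf in control (difference -1.33 ± 0.19, adjusted p = 0.00648). The control stages overlapped for ccnb3, and the csf1rDM stages did not. Neither call held when libraries were left out. Over the 12 fits that each left out 1 library of the series, TTK was called in 1, the fit without csf1rDM 50 hpf replicate 3, and ccnb3 in 0, with differences between -1.26 and -1.03 for TTK and between -1.42 and -1.24 for ccnb3. The summed replication group in control was 3805, 4395 and 4647 CPM at 50 hpf, against 7839, 7579 and 7444 CPM at 28 hpf, so that the csf1rDM libraries of 28 hpf were near the control libraries of 50 hpf and the csf1rDM libraries of 50 hpf were below them all. The control mitosis sums were 3718, 3322 and 3412 CPM at 50 hpf, against 4598, 5614 and 4888 CPM at 28 hpf.

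**Figure D3:**
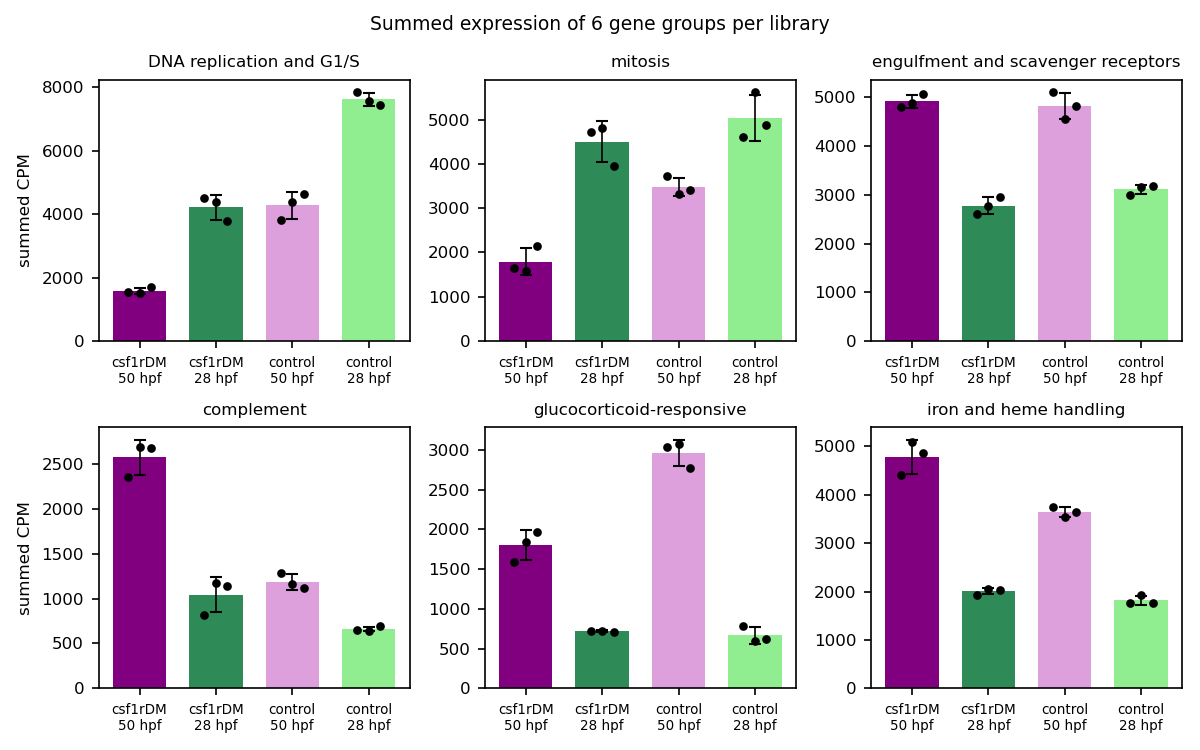
Summed CPM per library of 6 gene groups on a linear axis from 0, with csf1rDM 50 hpf, csf1rDM 28 hpf, control 50 hpf and control 28 hpf from left to right. Bars are means of 3 libraries, whiskers are SD and dots are libraries. In csf1rDM, the replication and mitosis sums were lower at 50 hpf, and those of scavenger receptors, complement, glucocorticoid-responsive genes and iron handling were higher, with no overlap between stages.

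Genes that set cell cycle entry and arrest moved both ways, with 6 of 46 tested members called higher and 5 lower (23.9%, against 8.24% of all tested genes). Their median was 0.07, or -0.04 without 28 hpf replicate 2. Those lower included CDK2 (-1.25 ± 0.13), a kinase of S phase, and E2F7 (-1.83 ± 0.22), a repressor of E2F targets. Those higher included single IDs with the symbols CDKN1B (1.35 ± 0.17), the inhibitor p27, and GADD45B (1.88 ± 0.24), of a family induced by growth arrest and DNA damage. Ribosome genes did not follow the replication genes. Of 58 ribosome biogenesis genes and 82 cytosolic ribosomal protein genes, 0 were called by edgeR in csf1rDM or in control, and 0 by DESeq2 in csf1rDM. Without 50 hpf replicate 2, edgeR called 1 ribosome biogenesis gene. An unadjusted p below 0.05 was reached by 22 and 19 of them in csf1rDM, against 38.5% of all tested genes, so neither share was above that of all genes. The medians were 0.07 and -0.13. That of ribosome biogenesis was 0.03 without 50 hpf replicate 3 and 0.003 without 28 hpf replicate 3, and that of ribosomal proteins was -0.04 without 50 hpf replicate 1 and -0.23 without 50 hpf replicate 2. The median of the ribosome biogenesis genes in control was -0.28, and the difference was positive for 55 of 58, against 47.0% of all tested genes. It was called for 0 of them by edgeR and by DESeq2, and had an unadjusted p below 0.05 for 19, against 12.9% of all tested genes. The summed ribosome biogenesis level was 4387, 4471 and 4448 CPM at 50 hpf, against 4240, 4098 and 4059 CPM at 28 hpf in csf1rDM, and 5260, 6098 and 6070 CPM at 50 hpf, against 6961, 7072 and 7016 CPM at 28 hpf in control.

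Many receptors with which macrophages bind and engulf dying cells and debris rose. Of 25 tested members, 11 were called higher and 0 lower (44.0%, against 8.24% of all tested genes), with a median log2 fold change of 1.43. In control 9 were called higher, with a median of 1.01, against 6.29% of all tested genes called there in either direction. The csf1rDM median was 1.47 to 1.84 when 1 csf1rDM library was left out. marco (ENSDARG00000059294), a class A scavenger receptor for bacteria and particles, had 697, 739.7 and 715 CPM at 50 hpf, against 125, 125 and 134 CPM at 28 hpf (log2 fold change 2.48 ± 0.07, adjusted p = 1.00e-09). mrc1b (ENSDARG00000038822), a mannose receptor, had 991, 853 and 1081 CPM at 50 hpf, against 111, 174 and 219.9 CPM at 28 hpf (log2 fold change 2.53 ± 0.24, adjusted p = 6.27e-06). stab1 (ENSDARG00000076484), or stabilin-1, which clears modified lipoproteins and cell debris, had 211, 229 and 242 CPM at 50 hpf, against 21.2, 27.8 and 31.5 CPM at 28 hpf (log2 fold change 3.08 ± 0.18, adjusted p = 1.68e-07). The 3 libraries of a stage were close together for marco and wider apart for mrc1b at 28 hpf, and none overlapped with the other stage. Receptors of phosphatidylserine, the signal on dying cells, were among them, namely mertka (1.43 ± 0.11), havcr2 (2.16 ± 0.13) and the low-abundance timd4 (1.82 ± 0.30). The summed level of the 34 matched IDs was 4811, 4880 and 5072 CPM at 50 hpf, against 2613, 2772 and 2950 CPM at 28 hpf.

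Complement genes, whose products tag targets for uptake, had 6 of 14 tested members called higher and 0 lower (42.9%, against 8.24% of all tested genes). The median was 1.64, and in control 4 were called higher, with a median of 0.32. The difference between genotypes, taken gene by gene, had a median of 0.322. It was called for 0 of the 14 by edgeR and for 1 by DESeq2. An unadjusted p of the difference below 0.05 was reached by 3, against 12.9% of all tested genes. The 3 chains of C1q, the recognition molecule of the classical pathway, all rose. c1qc (ENSDARG00000095627) had 147, 189 and 156 CPM at 50 hpf, against 24.4, 31.7 and 22.5 CPM at 28 hpf (log2 fold change 2.65 ± 0.14, adjusted p = 6.17e-08), c1qa had a log2 fold change of 2.18 ± 0.14 and c1qb of 1.36 ± 0.11. In control the 3 chains had log2 fold changes of 2.03 ± 0.14, 1.49 ± 0.11 and 2.52 ± 0.14 for c1qa, c1qb and c1qc. cfh (ENSDARG00000100442), or factor H, which restrains the alternative pathway, had 112, 122 and 99.0 CPM at 50 hpf, against 26.8, 37.8 and 35.8 CPM at 28 hpf in csf1rDM, and 32.5, 39.4 and 30.8 CPM at 50 hpf, against 29.9, 33.6 and 23.7 CPM at 28 hpf in control. Its log2 fold change was 1.73 ± 0.17 in csf1rDM and 0.24 ± 0.16 in control, and the difference of 1.49 ± 0.23 had an adjusted p of 0.0118, short of the call. The stages did not overlap for cfh in csf1rDM and overlapped in control.

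Iron and heme handling had 4 of 13 tested members called higher and 0 lower (30.8%, against 8.24% of all tested genes). The median was 0.74, or 1.18 without 28 hpf replicate 2. Besides SLC40A1, HMOX1 (ENSDARG00000027529), the heme oxygenase that frees iron from heme, had 821, 1160 and 841 CPM at 50 hpf, against 278, 303 and 299 CPM at 28 hpf (log2 fold change 1.68 ± 0.14, adjusted p = 3.04e-06). slc11a2 (ENSDARG00000024295), an importer of ferrous iron, had 386, 432 and 392 CPM at 50 hpf, against 167, 137 and 136 CPM at 28 hpf (log2 fold change 1.46 ± 0.10, adjusted p = 5.64e-07). No library of 28 hpf reached a library of 50 hpf in either gene. In control, HMOX1 had a log2 fold change of 0.70 ± 0.14, and the difference of 0.98 ± 0.20 was not called (adjusted p = 0.0391). The sums were 4399, 5098 and 4853 CPM at 50 hpf, against 1930, 2054 and 2036 CPM at 28 hpf.

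Of 65 tested lysosomal genes, 4 were called higher and 1 lower (7.69%), a share near the 8.24% of all tested genes. An unadjusted p below 0.05 was reached by 47 of the 65, a larger share than the 38.5% of all tested genes, so more members changed than were called. The log2 fold change was positive for 36 of the 65, against 52.7% of all tested genes. Their median of 0.09 was 0.02 to 0.07 without any 1 of the 6 csf1rDM libraries. The 4 members called higher were ctsl.1, CTSK (ENSDARG00000040251), or cathepsin K, with 443, 560.3 and 519 CPM at 50 hpf, against 50.4, 49.3 and 76.2 CPM at 28 hpf (log2 fold change 3.11 ± 0.20, adjusted p = 2.74e-07), and ctsla, with a log2 fold change of 1.15 ± 0.09, and a low-abundance ID of the cholesterol carrier NPC2. The lysosomal sums were 35020, 38220 and 37130 CPM at 50 hpf, against 35240, 34630 and 35240 CPM at 28 hpf, which overlapped between stages. Lipid handling had 7 of 31 members called higher and 0 lower (22.6%, median 0.51, or 0.79 without 28 hpf replicate 3). apoeb (ENSDARG00000040295), an apolipoprotein E, had 139, 85.7 and 95.4 CPM at 50 hpf, against 15.3, 4.73 and 3.35 CPM at 28 hpf (log2 fold change 3.85 ± 0.81, adjusted p = 0.00347). Its call was lost without 50 hpf replicate 1 (3.62), 28 hpf replicate 2 (3.57) or 28 hpf replicate 3 (3.46, log2 fold changes). Fatty acid oxidation had 5 of 30 members called higher (16.7%), among them CPT1B and UCP2 (ENSDARG00000043154), a mitochondrial carrier, with 873, 979 and 857 CPM at 50 hpf, against 276, 265 and 266 CPM at 28 hpf (log2 fold change 1.75 ± 0.07, adjusted p = 1.04e-08). Of the other metabolic groups, 2 of 90 oxidative phosphorylation genes (2.22%), 2 of 31 glycolysis genes (6.45%) and 0 of 22 cholesterol synthesis genes were called in csf1rDM by edgeR, against 8.24% of all tested genes. Of the 22 cholesterol synthesis genes, 7 had an unadjusted p below 0.05, against 38.5% of all tested genes, and DESeq2 called 1. Without 50 hpf replicates 2 or 3, or 28 hpf replicates 2 or 3, edgeR called 1 or 2 of them.

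Antigen presentation genes had 7 of 30 tested members called higher and 0 lower (23.3%, against 8.24% of all tested genes). The median was 1.14, and in control 10 were called higher, with a median of 1.52, against 6.29% of all tested genes called there. The csf1rDM median was 0.797 without 50 hpf replicate 1 and 1.195 without 28 hpf replicate 1. The difference between genotypes was called for 1 of the 30, mhc2d4b, and was negative. mhc1zba (ENSDARG00000036588), a class I heavy chain of the Z lineage, had 405, 484 and 403 CPM at 50 hpf, against 186, 169 and 179 CPM at 28 hpf (log2 fold change 1.27 ± 0.09, adjusted p = 5.73e-07). b2ml, a light chain of class I, had a log2 fold change of 1.90 ± 0.18, and mhc2dab, a class II chain, of 2.09 ± 0.25. Class I and II genes vary between fish lines and lie in families, so their counts are uncertain. The interferon response had 5 of 20 members called higher and 0 lower (25%, median 0.59, or 0.95 without 28 hpf replicate 3), including IFIH1 (2.07 ± 0.30), a sensor of double-stranded RNA, and gbp2 (1.09 ± 0.10), a guanylate-binding GTPase.

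NCF1 (ENSDARG00000033735), a cytosolic subunit of the NADPH oxidase that makes superoxide, had 265, 338 and 334 CPM at 50 hpf, against 1104, 917 and 997 CPM at 28 hpf (log2 fold change -1.69 ± 0.09, adjusted p = 1.05e-07). ACOD1 (ENSDARG00000069844), which makes itaconate in activated macrophages, had 318, 303 and 340.1 CPM at 50 hpf, against 1006, 778 and 829 CPM at 28 hpf (log2 fold change -1.44 ± 0.10, adjusted p = 4.74e-07). Both genes were more than 2-fold lower in the mean at 50 hpf, without overlap. Of 24 inflammatory mediators, 2 were called lower and 0 higher (8.33%), a share near the 8.24% of all tested genes. An unadjusted p below 0.05 was reached by 14 of the 24, a larger share than the 38.5% of all tested genes. The called count was 4 without 50 hpf replicate 1 and 1 without 28 hpf replicate 3, and the median of -0.15 turned to between 0.02 and 0.04 without 50 hpf replicate 2, 28 hpf replicate 2 or 28 hpf replicate 3. Toll-like receptors and adaptors had 3 of 19 members called higher and 1 lower (21.1%), but 2 in all without any 1 of the 28 hpf libraries, and tlr1, a receptor of bacterial lipoproteins, rose (1.27 ± 0.15).

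Chemokines and their receptors had 8 of 38 tested members called higher and 2 lower (26.3%, against 8.24% of all tested genes), and 7 or 8 in all without any 1 of the 6 csf1rDM libraries. Their median of 0.57 was 0.34 without 50 hpf replicate 1 and 0.86 without 28 hpf replicate 1. ccr2 (ENSDARG00000079829), named as a receptor for monocyte-attracting chemokines, had 19.3, 17.4 and 19.1 CPM at 50 hpf, against 0.364, 0.270 and 0.143 CPM at 28 hpf (log2 fold change 6.20 ± 0.33, adjusted p = 7.81e-08), with at most 4 counts in a library of 28 hpf. The ligands ccl34b.1 and ccl35.1, of chemokine families found in fish, had log2 fold changes of 4.02 ± 0.22 and 3.47 ± 0.18. The abundant of the IDs with the symbol CXCR4 (ENSDARG00000041959), the receptor of Cxcl12, had 103, 85.5 and 119 CPM at 50 hpf, against 243, 218 and 234 CPM at 28 hpf. It fell in csf1rDM (-1.18 ± 0.13) and had a log2 fold change of -0.13 ± 0.13 in control, and the difference of -1.05 ± 0.18 had an adjusted p of 0.019, which missed the threshold.

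Actin, adhesion and migration genes had a median of -0.36, with 2 of 46 tested members called higher and 2 lower. This called share of 8.7% was near the 8.24% of all tested genes. An unadjusted p below 0.05 was reached by 35 of the 46, a larger share than the 38.5% of all tested genes. The summed level was 30390, 35890 and 31250 CPM at 50 hpf, against 46850, 46920 and 48070 CPM at 28 hpf, so every library of 50 hpf was below every library of 28 hpf, LCP1 included. The integrin chain itgae.1 rose (1.60 ± 0.16). Of the 18 tested matrix metalloproteinases, relatives and inhibitors, 2 were called higher and 4 lower (33.3%). Their median of 0.09 ran from -0.13 to 0.81 when 1 of the 6 csf1rDM libraries was left out. Among those lower was mmp13a, whose call was kept in 1 of these 6 fits. An ID of MMP14 (ENSDARG00000008388), the membrane-bound collagenase, had 80.7, 98.1 and 96.6 CPM at 50 hpf, against 5.71, 3.85 and 4.92 CPM at 28 hpf (log2 fold change 4.27 ± 0.24, adjusted p = 1.05e-07).

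Genes known to respond to glucocorticoids had the largest called share of the groups that rose. Of 20 tested members, 11 were called higher and 0 lower (55.0%, against 8.24% of all tested genes), with a median of 1.62. In control 12 were called higher, with a median of 1.55, against 6.29% of all tested genes called there in either direction. KLF9 and FKBP5 belong to this group. tsc22d3 (ENSDARG00000075666), the glucocorticoid-induced leucine zipper protein, had 115, 131 and 135 CPM at 50 hpf, against 40.5, 41.1 and 32.2 CPM at 28 hpf (log2 fold change 1.74 ± 0.14, adjusted p = 2.17e-06). An ID of GLUL (ENSDARG00000099776), or glutamine synthetase, had 312, 397 and 411 CPM at 50 hpf, against 34.2, 18.0 and 41.9 CPM at 28 hpf (log2 fold change 3.58 ± 0.27, adjusted p = 1.03e-06). foxo3b (1.196 ± 0.11), a transcription factor of catabolism and stress, also rose. The sums were 1594, 1837 and 1964 CPM at 50 hpf, against 719, 728 and 709 CPM at 28 hpf in csf1rDM and 3040, 3076 and 2770 CPM at 50 hpf, against 786, 598 and 618 CPM at 28 hpf in control. The difference between genotypes was called for 0 of the 20 by edgeR and by DESeq2, and had an unadjusted p below 0.05 for 4, against 12.9% of all tested genes. It was positive for 9 of the 20, a share near the 47.0% of all tested genes.

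Circadian clock genes had 9 of 35 tested members called higher and 0 lower (25.7%, against 8.24% of all tested genes, median 0.79). In control 9 were called higher, against 6.29% of all tested genes called there. nr1d2a (ENSDARG00000003820), a nuclear receptor that represses clock genes, had 141, 157 and 192 CPM at 50 hpf, against 12.99, 11.8 and 12.1 CPM at 28 hpf (log2 fold change 3.74 ± 0.16, adjusted p = 1.69e-08). tefb (1.74 ± 0.11), a factor that binds clock-controlled promoters, and BHLHE40 (1.47 ± 0.12), a repressor of the clock, rose as well. The hour at which the embryos were collected is not given in the sources used here, so stage and time of day cannot be told apart. Immediate early genes, which also respond to cell dissociation, had 5 of 23 members called higher and 1 lower (26.1%, median 1.05), and egr1, an early growth response factor, had a log2 fold change of 2.37 ± 0.45 and ATF3, a stress factor, of -1.50 ± 0.17. Their sums were 1854, 2849 and 2565 CPM at 50 hpf, against 1703, 1729 and 1698 CPM at 28 hpf, and the part of dissociation in these values was not tested.

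The macrophage marker list did not move as a block. Of 37 tested members, 8 were called higher and 5 lower (35.1%). Their median was -0.09, which was -0.18 without 50 hpf replicate 2, -0.05 without 50 hpf replicate 1 and -0.06 without 28 hpf replicate 3. grna, a progranulin, and lgals9l1, a galectin, rose by log2 fold changes of 1.45 ± 0.07 and 2.19 ± 0.13, beside the scavenger receptors, and the falls included NCF1 and 3 IDs with the symbol MFAP4. Genes associated with microglia had 9 of 24 members called higher and 1, CXCR4, lower (41.7%, median 0.54). This list shares the C1q chains, apoeb, csf1rb, mertka, timd4, ccl34b.1 and CXCR4 with other lists, so the calls of these genes are not separate results. Of 42 myeloid and haematopoietic transcription factors, 3 were called higher and 2 lower (11.9%), a share near the 8.24% of all tested genes. MYB and BATF3 were the lower ones. An unadjusted p below 0.05 was reached by 23 of the 42, a larger share than the 38.5% of all tested genes. RUNX3 (ENSDARG00000052826), a runt-domain factor, had 16.2, 10.9 and 11.3 CPM at 50 hpf, against 1.46, 0.810 and 1.64 CPM at 28 hpf (log2 fold change 3.31 ± 0.44), and klf2a, a Kruppel-like factor, had a log2 fold change of 1.50 ± 0.21.

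**Figure D4:**
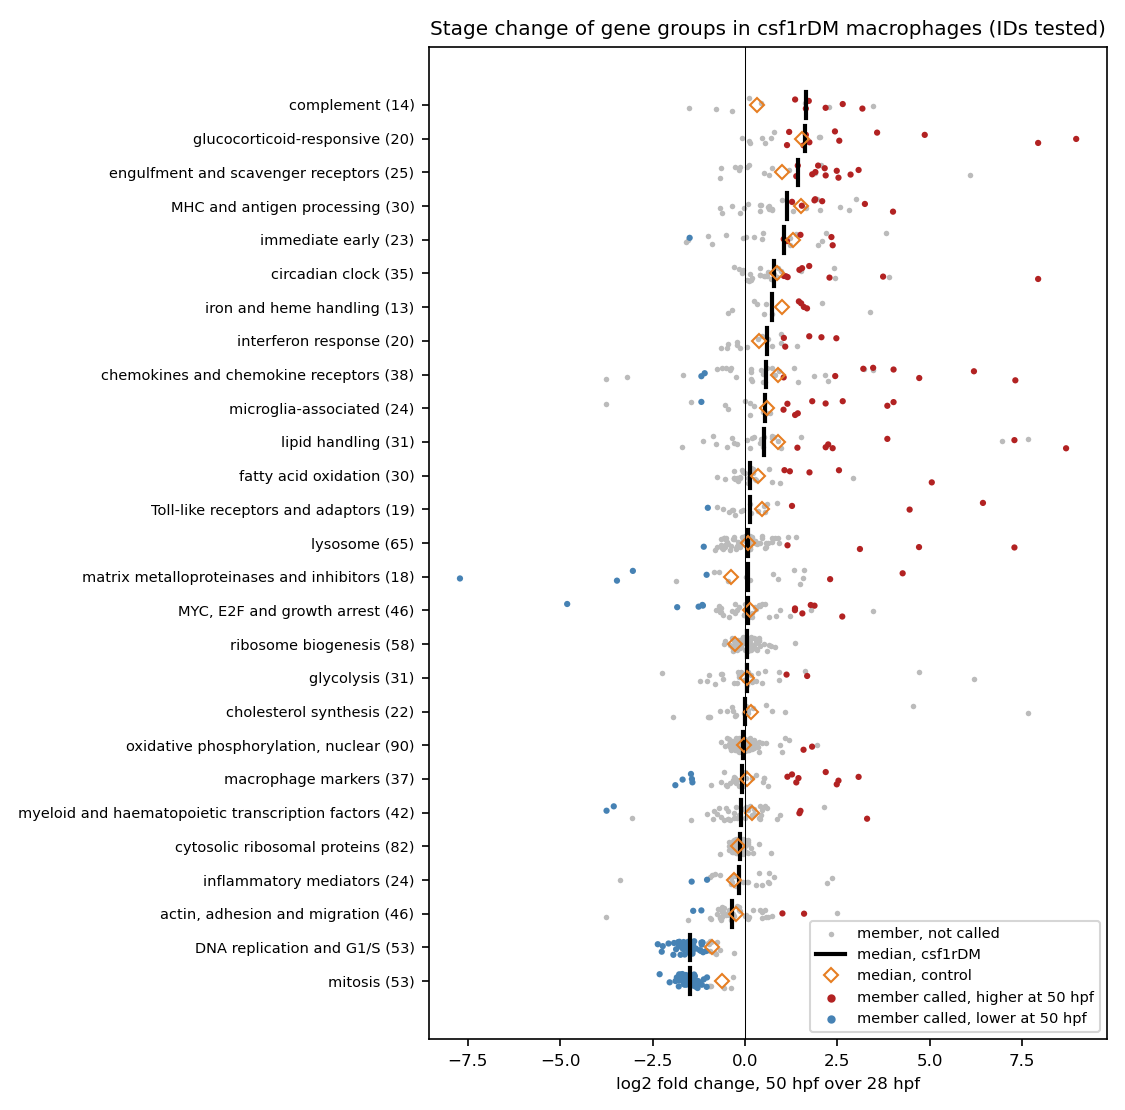
Log2 fold change, 50 over 28 hpf, of each tested member of 27 gene groups in csf1rDM macrophages, with the number of tested IDs in brackets. Dots are genes (red called higher, blue called lower, grey not called), black bars are the csf1rDM medians and orange diamonds the control medians. Mitosis (median -1.50) and DNA replication (-1.48) lie at the bottom and complement (1.64) and glucocorticoid-responsive genes (1.62) at the top.

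Some markers of other lineages changed with stage. Of 16 tested endothelial markers, 3 were called higher and 0 lower (18.8%, against 8.24% of all tested genes). They were MCAM, robo4 (ENSDARG00000009387), a guidance receptor, with 20.8, 10.8 and 20.7 CPM at 50 hpf, against 0, 0.540 and 0.0713 CPM at 28 hpf (log2 fold change 6.14 ± 0.52), and plvapb, of vessel fenestrae (2.53 ± 0.36). The endothelial sums were 240, 237 and 224 CPM at 50 hpf, against 175, 142 and 132 CPM at 28 hpf, made mostly of MCAM, TIE1 and tek, whereas the vascular receptor kdrl was at most 0.971 CPM in any csf1rDM library and the vascular cadherin cdh5 at most 3.44 CPM. The haematopoietic progenitor markers summed to 67.9, 75.3 and 63.4 CPM at 50 hpf, against 159, 129.5 and 127 CPM at 28 hpf, with MYB the called member of 5 tested. Neutrophil markers had 2 of 9 called lower (22.2%) and keratinocyte markers 2 of 13 (15.4%), against 8.24% of all tested genes called in either direction. The neutrophil calls, npsn and mmp13a, were kept in 3 and 1 of the 6 fits that each left out 1 csf1rDM library. Of the abundant neutrophil markers, CSF3R and nccrp1 overlapped between stages, and il6r was lower in every library of 50 hpf than in any of 28 hpf. Of the 16 skeletal muscle and 11 tested pigment markers, 0 were called by edgeR, with 0 and 4 at an unadjusted p below 0.05 and 0 and 1 called by DESeq2. The difference between genotypes had a median of -7.41 over the 16 muscle markers and was called for 0 of them by edgeR and by DESeq2. Its unadjusted p was below 0.05 for 12 of the 16, against 12.9% of all tested genes. Transferrin was the called member of the yolk and liver list.

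The question of which stage changes differed between genotypes gave 26 genes of 16429 (0.158%), 15 with a positive and 11 with a negative difference, and 151 at an adjusted p below 0.05 with any fold. Of the genes called in csf1rDM, 74 had an adjusted p of the difference below 0.05. Both comparisons rest on the same csf1rDM libraries, and the difference also uses the control libraries. The count was 11 to 29 when 1 csf1rDM library was left out and 5 to 9 when 1 control library was left out. Of the 15 genes with a called difference that are named here, marco, mhc2d4b, scinlb and si:ch211-133n4.7 were called in each of the 12 fits that left out 1 library.

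The largest positive differences were in genes that fell in control and changed less in csf1rDM, or rose more in csf1rDM. scpp8 (ENSDARG00000093124), named as a secretory calcium-binding phosphoprotein, had 32.9, 42.4 and 25.0 CPM at 50 hpf, against 44.4, 46.8 and 67.9 CPM at 28 hpf in csf1rDM, and 1.38, 1.53 and 0.768 CPM at 50 hpf, against 21.4, 20.8 and 13.3 CPM at 28 hpf in control (difference 3.22 ± 0.40, adjusted p = 0.00296). scinlb (ENSDARG00000058348), related to the actin-severing protein scinderin, had 189.9, 189.7 and 190.3 CPM at 50 hpf, against 230.1, 258 and 175 CPM at 28 hpf in csf1rDM, and 76.6, 119.6 and 84.9 CPM at 50 hpf, against 500.2, 466 and 537 CPM at 28 hpf in control (difference 2.199 ± 0.23, adjusted p = 0.00102). The stages overlapped for scinlb in csf1rDM and were apart in control, where it was more than 2-fold lower at 50 hpf. si:ch211-133n4.7 (ENSDARG00000095424) had 83.9, 93.3 and 76.2 CPM at 50 hpf, against 10.1, 8.17 and 7.63 CPM at 28 hpf in csf1rDM, and 27.4, 25.9 and 24.7 CPM at 50 hpf, against 13.1, 14.2 and 14.5 CPM at 28 hpf in control (difference 2.40 ± 0.18, adjusted p = 5.10e-05). marco and c1ql1 rose in csf1rDM and their control log2 fold changes were 1.08 ± 0.07 and 0.68 ± 0.09, giving differences of 1.41 ± 0.09 (adjusted p = 1.95e-05) and 1.09 ± 0.13 (adjusted p = 0.00195). Both scpp8 and c1ql1 lost the call without csf1rDM 28 hpf replicate 2, and without 5 (scpp8) and 6 (c1ql1) of the 6 control libraries in turn. Their differences lay between 2.98 and 3.49 for scpp8 and between 1.03 and 1.19 for c1ql1.

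Of the 15 genes with a positive difference, 3 belonged to the microfibril-associated protein 4 family and were singled out after their values were seen. mfap4.8 (ENSDARG00000093877) had 415, 585 and 458 CPM at 50 hpf, against 2256, 2555 and 2226 CPM at 28 hpf in csf1rDM, and 96.0, 92.5 and 97.4 CPM at 50 hpf, against 1272, 1445 and 1258 CPM at 28 hpf in control. mfap4.11 (ENSDARG00000094408) had 138, 198 and 147 CPM at 50 hpf, against 1466, 1387 and 1199 CPM at 28 hpf in csf1rDM, and 28.7, 25.9 and 34.2 CPM at 50 hpf, against 817, 1044 and 870.4 CPM at 28 hpf in control. mfap4.7 (ENSDARG00000092806) had 272, 347 and 273 CPM at 50 hpf, against 989, 958 and 797 CPM at 28 hpf in csf1rDM, and 114, 102 and 119 CPM at 50 hpf, against 705, 896 and 729 CPM at 28 hpf in control. All 3 fell in both genotypes, and each was lower in every control library of 50 hpf than in any csf1rDM library of 50 hpf. The differences were 1.53 ± 0.15 (adjusted p = 7.64e-04), 1.88 ± 0.21 (adjusted p = 0.0016) and 1.18 ± 0.17 (adjusted p = 0.00939) for mfap4.8, mfap4.11 and mfap4.7. The call of mfap4.8 was lost without control 50 hpf replicate 2 (adjusted p = 0.0103), that of mfap4.11 without control 50 hpf replicates 1 or 2 (adjusted p up to 0.0142), and that of mfap4.7 without any 1 of the 12 libraries (differences between 1.05 and 1.303). These are closely related genes, and reads shared between copies could be counted for more than 1 of them or for none.

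The largest negative differences were in tmem269, mhc2d4b and cabp5b. mhc2d4b (ENSDARG00000101030), of the class II family, had 499.7, 544 and 543 CPM at 50 hpf, against 409.7, 343 and 438 CPM at 28 hpf in csf1rDM, and 755, 796 and 756 CPM at 50 hpf, against 119, 131 and 111 CPM at 28 hpf in control (difference -2.26 ± 0.13, adjusted p = 5.23e-06). Its csf1rDM libraries were thus high at 28 hpf already, against the control libraries of that stage. tmem269 (ENSDARG00000079307) had 1.59, 0.804 and 0.889 CPM at 50 hpf, against 20.6, 29.4 and 23.5 CPM at 28 hpf in csf1rDM, and 4.69, 6.41 and 6.33 CPM at 50 hpf, against 29.8, 20.4 and 23.1 CPM at 28 hpf in control (difference -2.43 ± 0.36, adjusted p = 0.00954). cabp5b (ENSDARG00000028485), a calcium-binding protein, had 5.02, 7.64 and 8.30 CPM at 50 hpf, against 53.1, 44.4 and 40.9 CPM at 28 hpf in csf1rDM, and 31.8, 39.1 and 38.5 CPM at 50 hpf, against 61.5, 77.8 and 72.5 CPM at 28 hpf in control (difference -1.76 ± 0.25, adjusted p = 0.00631). Besides mhc2d4b, of the antigen presentation group, the members of gene groups with a called negative difference were TTK, ccnb3, NCF1 and insig1. NCF1 had 364, 385 and 353 CPM at 50 hpf, against 569.6, 555 and 559 CPM at 28 hpf in control (difference -1.08 ± 0.13, adjusted p = 0.00296). insig1 (ENSDARG00000010658), which holds back cholesterol synthesis, had 40.5, 51.3 and 41.6 CPM at 50 hpf, against 95.0, 82.3 and 87.6 CPM at 28 hpf in csf1rDM, and 80.0, 85.3 and 84.1 CPM at 50 hpf, against 66.3, 69.7 and 78.2 CPM at 28 hpf in control (difference -1.21 ± 0.16, adjusted p = 0.00384). Over the 12 fits, tmem269 was called in 1, cabp5b in 2, insig1 in 2 and NCF1 in 4, all 4 differences stayed negative, and each fit without a control library lost all 4 calls.

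**Figure D5:**
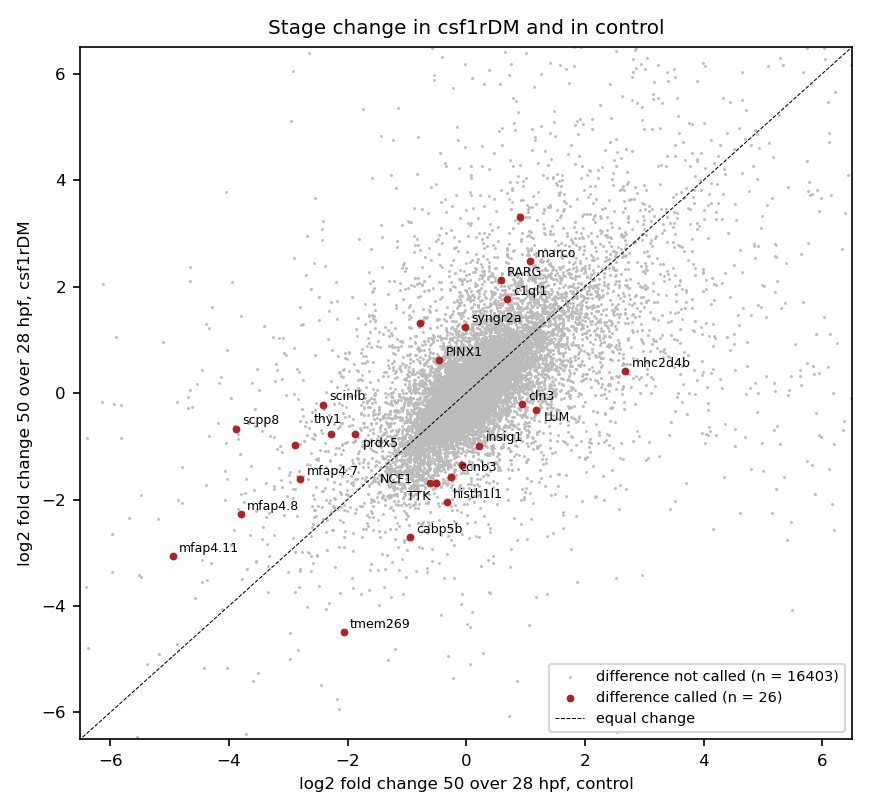
Log2 fold change, 50 over 28 hpf, of each tested gene in csf1rDM (y axis) against control (x axis). The 26 genes whose difference was called are red, the dashed line marks equal change, and 189 genes beyond 6.5 on either axis are not drawn. The mfap4 genes lie above the line at the lower left, and mhc2d4b, with 0.42 in csf1rDM and 2.68 in control, lies below it on the right.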

How the data were processed

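GFP-positive cells of pooled zebrafish embryos were sorted by flow cytometry after dissociation on ice. The authors amplified cDNA with the SMART-seq V4 kit, sequenced read pairs of 75 bp and aligned them to GRCz10. The submitters' processing notes name CASAVA 1.8, cutadapt, STAR 2.5.4b, Cufflinks 2.2.1, HTSeq 0.11.0 and edgeR. The deposited table holds raw counts per Ensembl gene for 35117 IDs, with no normalisation by the authors. The strand setting is not given in the sources used here, so overlapping, antisense and paralogous genes are uncertain. There are no molecular identifiers, and intervals and floors cover counting error only.

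Groups came from the sample labels. Symbols came from a table of Ensembl names, often of human spelling, and matched 27000 IDs (76.9%). A symbol without the final a or b of a zebrafish paralogue was taken where the full name had no match. Counts were filtered with filterByExpr (16429 genes), scaled by TMM and tested with edgeR 4.0.16 in R 4.3.3 (quasi-likelihood). All 12 libraries entered 1 model with a mean per group. A gene was called at an adjusted p below 0.01 with an absolute log2 fold change above 1. CPM are TMM-scaled, and standard errors are the log2 fold change over the root of F. The ratio of KLF9 has an exact binomial interval of 95%. The fit was tested on simulated data. Replicates of a group differed by more than sampling noise.

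Named genes were, among called genes, the 10 largest rises and falls with a symbol of 1 ID, a mean of at least 10 CPM and no overlap, the 6 largest gains and losses in CPM, the 3 largest differences of each sign, the targeted genes and list members. The comparison, the lists and the rules were chosen with earlier results of these data known. The lists were written from general knowledge. No set test was run. Alternatives were other scalings, filters, thresholds and tools (DESeq2 1.42.0), a replicate block and leaving out libraries. No genome sequence was used here.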

Additional observations from a re-analysis of the deposited data

Results flagged for a closer look

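The stage change differed between csf1rDM and control for 15 genes named in the text, by the edgeR test of the difference itself (csf1rDM minus control, log2 scale, adjusted p below 0.01). The difference was positive for scpp8 (3.22), si:ch211-133n4.7 (2.40), scinlb (2.199), mfap4.11 (1.88), mfap4.8 (1.53), marco (1.41), mfap4.7 (1.18) and c1ql1 (1.09). It was negative for tmem269 (-2.43), mhc2d4b (-2.26), cabp5b (-1.76), ccnb3 (-1.33), insig1 (-1.21), TTK (-1.18) and NCF1 (-1.08). All groups had 3 libraries, too few for a test of single outlying libraries.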

How the results depend on the processing

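The count of 1353 genes called in csf1rDM (772 higher, 581 lower) stayed within 1.5 times under DESeq2 size factors (1371), upper quartile scaling (1376), no scaling (1420), no filter (1414), a minimum of 10 counts in every library (1248) and the DESeq2 Wald test (1787). It was 889 (493 higher) with the 6 csf1rDM libraries alone, 4537 (2179 higher, 2358 lower) at an adjusted p below 0.05 with no fold limit, and 674 (408 higher, 266 lower) when tested against a log2 fold change of 1. Leaving out each csf1rDM library gave 1204 to 1401, and 901 of the 1353 genes were called in all 6 of these fits. Without both csf1rDM libraries numbered 3, an alternative added after seeing the data because they held the highest muscle sums, the count was 1212, 1026 of them among the 1353. The labels do not say whether the replicate numbers pair the csf1rDM libraries, and the main fit assumed no pairing. The deviations of same-numbered libraries correlated at 0.144, 0.0229 and 0.108, against -0.137 to 0.0331 for libraries of different number. The value of 0.0331 belonged to 50 hpf replicate 2 with 28 hpf replicate 3. With the replicate number as a block, 1232 genes were called.

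The 26 called differences (15 positive, 11 negative) were less stable. There were 57 without a filter (28 positive, 29 negative), 51 with a minimum of 10 counts (28 and 23), 16 with the replicate block (3 negative), 133 with DESeq2 (70 and 63), 151 at an adjusted p below 0.05 with no fold limit (62 and 89) and 2 against a log2 fold change of 1 (1 and 1). Leaving out 1 library gave 5 to 29 in all, 4 to 13 positive and 1 to 17 negative. Each fit without a library also had fewer degrees of freedom. The cause of these changes in count was not tested.

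Of the log2 fold changes of named genes under the alternatives, 1658 kept their direction and their side of the threshold, 34 lost the call and 4 gained it. ptprc, which was not called, turned to 0.016 without scaling, which moved the median of all genes to 0.15. The median of macrophage markers also turned positive without scaling (0.016), and so did that of myeloid transcription factors. Of 459 counts of called list members, 63 moved by more than 1.5 times. Of 405 list medians, 88 moved by at least the SD, within a csf1rDM stage, of the mean log2 CPM of that list. Against a log2 fold change of 1, 26 replication and 24 mitosis genes were called. Depth limits genes with few counts, of which KLF9 at 28 hpf is an example.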
